A study of Mus musculus with 40 samples.

Results

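The distal part of mouse chromosome 17 was examined through the protein-coding genes whose start lay between 70 and 90 Mb on mm10. Kept were genes that had 10 or more counts in 4 or more of the 40 cortical libraries, and 105 of the 117 protein-coding genes of this interval met that rule. They stood among 797 protein-coding genes kept on chromosome 17 and 21253 genes kept in all. The other 12 genes, left out for low counts, were *Gm16519*, *Capn13*, *Srd5a2*, *Gm10190*, *Gm11096*, *Abcg5*, *Abcg8*, *Tmem247*, *Atp6v1e2*, *1700011E24Rik*, *Rpl36-ps4* and *Fshr*. The first member began 22.5 Mb and the last 41.56 Mb from the start of *Trem2*, the edited gene. The rule used position and expression and no genotype value, and the interval itself was picked with earlier results of these data known.

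RNA came from the cortex of 40 mice in 4 groups of 10, each with 5 females and 5 males. The amyloid cohort carried the 5xFAD transgenes and was studied at 8.5 months, and held WT mice with unedited *Trem2* and Hom mice homozygous for *Trem2* H157Y. The non-amyloid cohort held WT and Hom mice without these transgenes at 6 months. 5xFAD mice carry human transgenes of familial Alzheimer's disease that are expressed in neurons from a Thy1 promoter, and develop amyloid plaques, and all mice of the amyloid cohort were hemizygous for the transgenes. Per the study's methods the knock-in was made with CRISPR/Cas9 in zygotes of B6/CBA F1 mice, the line descended from 1 founder, and littermates were compared. Transgenes and age differed together between the cohorts and cannot be told apart. Libraries are named by the study's replicate numbers, which run from 1 to 40 over the groups. Total counts per library ranged from 41646271 to 105903846, with a median of 77193387.

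TREM2 is a receptor of microglia, the immune cells of the brain. Genes on the same chromosome are inherited together unless recombination separates them, so variants near an edited site tend to travel with the edit, and less so with distance. Where the strains behind a line differ in such a variant, mice with and without the edit can differ in a neighbouring gene. The members have no common function. They include sarcomere and cytoskeletal genes, mitochondrial genes, DNA repair genes, kinases and channels. The H157Y change alters the protein and not the gene model, so counts of *Trem2* do not check the genotype labels. *Trem2* ranged from 30.2 to 111 CPM (counts scaled by library size and TMM factors) in amyloid WT mice and from 17.3 to 49.1 CPM in amyloid Hom mice. In non-amyloid mice it ranged from 7.69 to 15.2 CPM in WT and from 7.52 to 12.7 CPM in Hom.

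*Cox7a2l* is shown with its sequence because a near-identical copy of it lies elsewhere in the genome and was counted as a gene of its own. *Cox7a2l* encodes SCAFI, a protein that joins respiratory complexes III and IV, and C57BL/6 mice are known to carry a shorter form of it than many other strains. *Gm6969* is a processed pseudogene of 342 bases at chr12:24638669-24639010 on the minus strand. It aligned to the *Cox7a2l* transcript at 97.7% identity over 342 aligned positions, with 2 mismatches and 1 gap of 6 bases. *Gm6969* holds 6 bases that the mm10 sequence of *Cox7a2l* lacks, here in capitals. The first stretch is coding sequence in exon 3 of 3 of *Cox7a2l* at chr17:83502693-83502737, minus strand, and the second is the matching part of *Gm6969* at chr12:24638759-24638809, minus strand.
Cox7a2l: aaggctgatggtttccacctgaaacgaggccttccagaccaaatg
Gm6969: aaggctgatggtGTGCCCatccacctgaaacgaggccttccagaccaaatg

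The promoters of the 3 genes the results turn on are shown as RefSeq gives them on GRCm38.p6, the 250 bases before each start of transcription. RefSeq held a promoter for 80 of the 105 members. The windows were searched on both strands for 3 motifs. The motif TATAAA was found in 12.4% of all 32851 windows of this length, the motif CCAAT in 33.8% and the motif GGGCGG in 32.7%. *Myom1* and *Sult6b1* held none of these motifs, and *Cox7a2l* held 1, in capitals. CpG dinucleotides numbered 13 in the *Cox7a2l* window and 2 in each of the others. The windows lie at chr17:71019307-71019556 on the plus strand, chr17:83514334-83514583 on the minus strand and chr17:78906993-78907242 on the minus strand, in the order shown.
Myom1: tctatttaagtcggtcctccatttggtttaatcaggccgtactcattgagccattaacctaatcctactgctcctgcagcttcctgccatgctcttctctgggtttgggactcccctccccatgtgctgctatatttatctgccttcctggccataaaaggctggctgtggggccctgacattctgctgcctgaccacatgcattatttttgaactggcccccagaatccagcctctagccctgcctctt
Cox7a2l: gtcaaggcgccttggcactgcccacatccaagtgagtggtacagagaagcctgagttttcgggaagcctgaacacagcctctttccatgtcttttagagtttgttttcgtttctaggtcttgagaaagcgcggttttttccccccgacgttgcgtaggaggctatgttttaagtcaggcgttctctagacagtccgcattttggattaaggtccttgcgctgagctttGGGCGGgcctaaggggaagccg
Sult6b1: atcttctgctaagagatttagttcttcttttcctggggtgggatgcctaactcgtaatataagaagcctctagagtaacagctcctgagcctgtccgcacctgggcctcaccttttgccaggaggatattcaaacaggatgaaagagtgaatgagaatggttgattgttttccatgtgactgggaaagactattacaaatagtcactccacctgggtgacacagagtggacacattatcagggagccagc

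Hom mice had lower *Myom1* and higher *Sult6b1* than WT mice in the amyloid cohort, and these were the 2 of 105 members (1.9%) that were called there. A gene was called at an adjusted p under 0.05 with an absolute log2 fold change over 0.25, by the quasi-likelihood test of edgeR, adjusted over all genes by the Benjamini-Hochberg method. Over all genes 0.0753% were called in this comparison. Without amyloid edgeR called 0 members, beside 0.0329% of all genes, and 9 members (8.57%) had an unadjusted p under 0.05, of which Hom mice were lower in 6 and higher in 3, beside 4.49% of all genes. DESeq2 also called 0 members there, beside 0.0518% of all genes, and had 14 at an unadjusted p under 0.05, beside 4.84% of all genes. In the amyloid cohort 20 members (19%) had an unadjusted p under 0.05, of which Hom mice were lower in 13 and higher in 7, beside 9.67% of all genes. *Myom1* and *Cox7a2l* were the 2 members at this p in both cohorts. The share of all genes at this p in both cohorts is not given here, so this count has no background beside it.

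*Myom1*, which encodes myomesin, a protein of the sarcomere's M band, lies at chr17:71019521-71126856, 22.67 Mb from *Trem2*. In amyloid WT mice it ranged from 2.11 to 3.25 CPM with a median of 2.84, and in amyloid Hom mice from 1.08 to 2.45 CPM with a median of 1.52. In non-amyloid WT mice it ranged from 1.66 to 3.31 CPM with a median of 2.95, and in non-amyloid Hom mice from 1.18 to 2.41 CPM with a median of 1.89. Hom mice were the lower group in both cohorts, and the groups overlapped in both: 8 of 10 Hom mice lay below all WT mice in the amyloid cohort and 3 of 10 in the other. The log2 fold change was -0.75 (SE 0.14, adjusted p = 0.0402, edgeR) with amyloid and -0.56 (SE 0.15, unadjusted p = 7.7e-04, adjusted p = 0.597, edgeR) without. Averaged over both cohorts in 1 fit of the 40 libraries, *Myom1* fell, with a log2 fold change of -0.66 (SE 0.10, adjusted p = 2.4e-04, edgeR). It was the 1 member (0.952%) at an unadjusted p under 0.01 in both cohorts with the same direction, beside 0.122% of all genes.

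The call of *Myom1* in the amyloid cohort was lost when any 1 of 11 libraries was left out, WT replicates 5, 8, 12, 26, 27, 32 and 36 and Hom replicates 30, 33, 39 and 40, at an adjusted p from 0.053 to 0.0965 by edgeR. Its log2 fold change stayed between -0.83 and -0.70 over the 20 fits without 1 library. Without the filter on low counts its adjusted p was 0.0683 by edgeR. The average over both cohorts held in all 40 fits without 1 library, at an adjusted p of at most 0.000632 by edgeR. In females of the amyloid cohort *Myom1* ranged from 2.67 to 3.06 CPM in WT and from 1.08 to 2.31 CPM in Hom mice, and the 5 and 5 mice did not overlap. In males of that cohort the ranges were 2.11 to 3.25 CPM in WT and 1.28 to 2.45 CPM in Hom mice, and they overlapped.

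**Figure D1:**
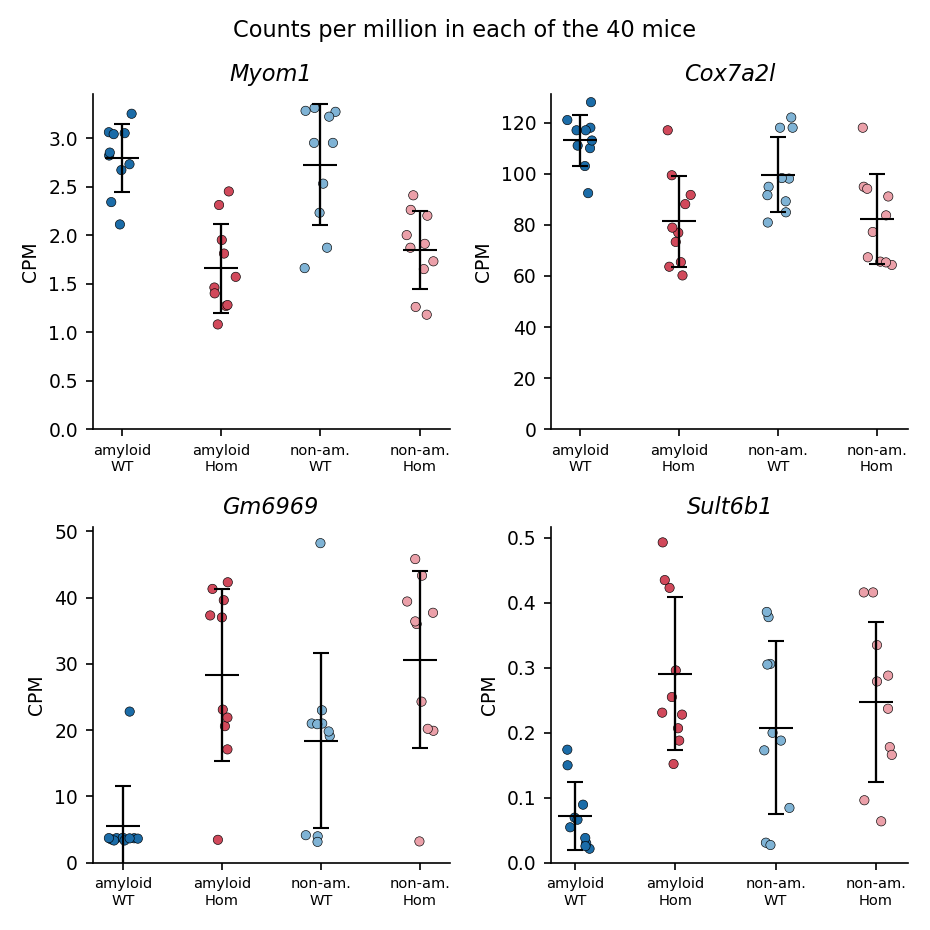
CPM of *Myom1*, *Cox7a2l*, *Gm6969* and *Sult6b1* in each of the 40 mice by group (points), with the mean and SD of 10 mice (bars, cut at 0). *Myom1* and *Cox7a2l* have lower means in Hom than in WT mice in both cohorts, and *Sult6b1* in amyloid WT mice stays at or below 0.174 CPM.

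*Cox7a2l* at chr17:83501919-83514333 lies 35.16 Mb from *Trem2*. It ranged from 92.4 to 128 CPM (median 115) in amyloid WT mice and from 60.2 to 117 CPM (median 77.9) in amyloid Hom mice. In the non-amyloid cohort it ranged from 80.9 to 122 CPM (median 96.5) in WT and from 64.3 to 118 CPM (median 80.4) in Hom mice. 8 of 10 Hom mice lay below all WT mice in the amyloid cohort and 5 of 10 in the non-amyloid cohort, and in each cohort 1 Hom mouse, replicates 10 and 14, stood above the WT median. The log2 fold change was -0.47 (SE 0.10, adjusted p = 0.0554, edgeR) with amyloid and -0.28 (SE 0.11, adjusted p = 0.962, edgeR) without, and neither passed. In the average of both cohorts *Cox7a2l* was called, at -0.38 (SE 0.08, adjusted p = 0.0126, edgeR). The amyloid comparison called it once Hom replicate 10, or else WT replicate 13 or 22, was left out (adjusted p from 0.0105 to 0.0332, edgeR), and by DESeq2 (adjusted p = 0.00218). *Cox7a2l* and *Myom1* were the 2 members called in the average, both lower in Hom mice, beside 0.165% of all genes.

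The copy differed the other way. *Gm6969* ranged from 3.36 to 22.8 CPM in amyloid WT mice and from 3.46 to 42.3 CPM in amyloid Hom mice, a log2 fold change of 2.37 (SE 0.41, adjusted p = 0.0249, edgeR). Without amyloid it ranged from 3.15 to 48.2 CPM in WT and from 3.22 to 45.8 CPM in Hom mice, a log2 fold change of 0.73 (SE 0.42, adjusted p = 0.962, edgeR). Its values fell into 3 separate levels over the 40 mice. At the lowest, 14 mice had 3.15 to 4.16 CPM of *Gm6969* and 103 to 128 CPM of *Cox7a2l*. At the middle level, 14 mice had 17.1 to 24.25 CPM of *Gm6969* and 78.9 to 99.4 CPM of *Cox7a2l*. At the highest, 12 mice had 36 to 48.2 CPM of *Gm6969* and 60.2 to 83.7 CPM of *Cox7a2l*. No mouse lay between the levels of *Gm6969*, and the ranges of *Cox7a2l* overlapped between the middle and the highest level alone.

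By group, amyloid WT mice numbered 9, 1 and 0 at the lowest, middle and highest level of *Gm6969*, and amyloid Hom mice 1, 4 and 5. Non-amyloid WT mice numbered 3, 6 and 1, and non-amyloid Hom mice 1, 3 and 6. The lowest and the middle level thus held mice of all 4 groups, and the highest held 1 WT mouse, replicate 1 of the non-amyloid cohort. The levels were read from measured values and were given no test. Over the same levels *Myom1* ranged from 1.87 to 3.31, from 1.57 to 3.27 and from 1.08 to 2.0 CPM, and *Sult6b1* from 0.0216 to 0.188, from 0.0962 to 0.493 and from 0.178 to 0.435 CPM. Both genes therefore spanned overlapping ranges in neighbouring levels.

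Summed over *Cox7a2l* and *Gm6969*, the counts differed less between the groups. The sum averaged 118.6 ± 6.77 CPM (SD, n = 10) in amyloid WT mice and 109.8 ± 9.73 CPM (SD, n = 10) in amyloid Hom mice. It averaged 118 ± 7.58 CPM (SD, n = 10) in non-amyloid WT mice and 112.7 ± 9.27 CPM (SD, n = 10) in non-amyloid Hom mice. The log2 fold change of the sum was -0.11 (SE 0.05, adjusted p = 0.468, edgeR) with amyloid, -0.07 (SE 0.05, adjusted p = 0.962, edgeR) without, and -0.09 (SE 0.03, adjusted p = 0.409, edgeR) in the average, where the call of *Cox7a2l* was lost. This sum was added after the data were seen. Which of the 2 genes the reads came from was not tested, since reads were not used here.

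**Figure D2:**
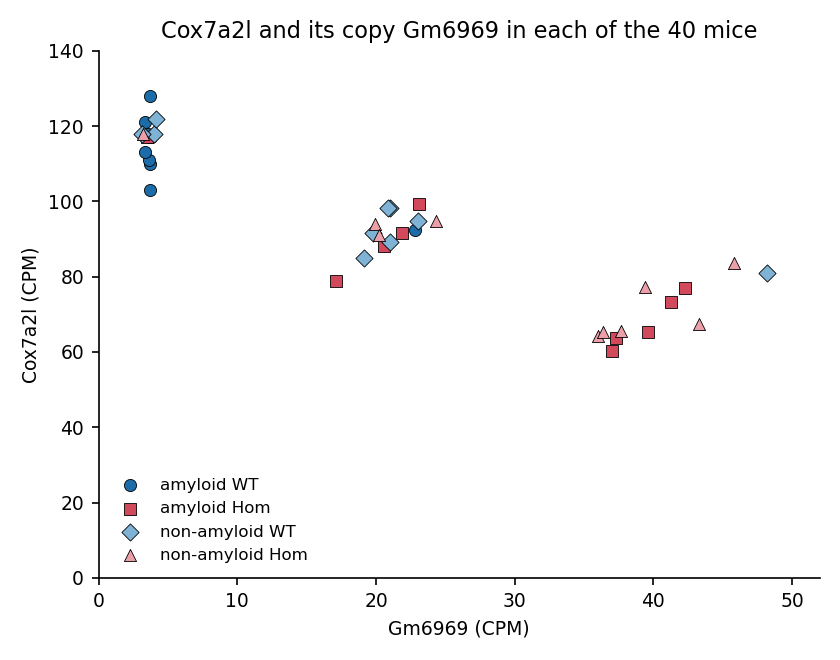
CPM of *Cox7a2l* (vertical) against CPM of its copy *Gm6969* (horizontal) in each of the 40 mice, with a colour and symbol for each group. The mice form clusters of 14, 14 and 12, and *Cox7a2l* is lower in the clusters with more *Gm6969*.

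*Sult6b1*, a cytosolic sulfotransferase, lies at chr17:78883938-78906992, 30.54 Mb from *Trem2*, and was low in cortex, at a mean of 0.204 CPM over the 40 mice. It ranged from 0.0216 to 0.174 CPM (median 0.0604) in amyloid WT mice and from 0.152 to 0.493 CPM (median 0.243) in amyloid Hom mice. Without amyloid it ranged from 0.0273 to 0.386 CPM (median 0.194) in WT and from 0.0638 to 0.416 CPM (median 0.258) in Hom mice. 9 of 10 amyloid Hom mice lay above all amyloid WT mice, while 2 of 10 did in the non-amyloid cohort. The log2 fold change was 2.0 (SE 0.35, adjusted p = 0.0231, edgeR) with amyloid and 0.26 (SE 0.40, adjusted p = 0.964, edgeR) without. The difference between these effects was 1.75 (SE 0.55, unadjusted p = 0.00271, adjusted p = 0.206, edgeR) and did not pass.

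The call of *Sult6b1* in the amyloid cohort was lost without WT replicate 12, 26, 27 or 36 or Hom replicate 39 (adjusted p from 0.053 to 0.066, edgeR) and without the filter on low counts (adjusted p = 0.0511, edgeR). In WT mice alone, *Sult6b1* was lower in the amyloid than in the non-amyloid cohort, at a log2 fold change of -1.53 (SE 0.41, adjusted p = 0.00897, edgeR). Amyloid WT mice thus had the lowest median of the 4 groups. The WT groups also differed in their mix of *Gm6969* levels, at 9, 1 and 0 amyloid and 3, 6 and 1 non-amyloid mice. At the lowest level, *Sult6b1* ranged from 0.0216 to 0.15 CPM in amyloid WT mice. The 3 non-amyloid WT mice at that level had 0.0309, 0.0844 and 0.0273 CPM. The part of the levels in the cohort difference was not tested. The average genotype effect over both cohorts was 1.13 (SE 0.27, adjusted p = 0.0699, edgeR), and it passed without non-amyloid Hom replicate 14 (adjusted p = 0.049, edgeR) or amyloid WT replicate 22 (adjusted p = 0.0264, edgeR).

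Bands were sought in the values of each member. A gene was taken as banded where its 40 values of log2 CPM had a gap of at least 0.3 with at least 3 mice on each side, where that gap was at least 1.5 times the larger SD of the 2 sides, and where its mean was at least 0.5 CPM. By this rule 0 of 105 members were banded, beside 0.602% of all genes. In neither cohort did any member have all 10 Hom mice above or below all 10 WT mice, beside 0.00941% of all genes in the amyloid and 0.0188% in the non-amyloid cohort. At shares this low, 0 of 105 does not set the members apart from all genes.

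Over the members as a whole, 60 of 105 (57.1%) had the same sign of the log2 fold change in both cohorts, which share no mouse, beside 41.1% of all genes. The median log2 fold change of the members was 0.028 in the amyloid cohort, beside 0.001 for all genes, and -0.028 in the non-amyloid cohort, beside -0.007. The median absolute log2 fold change of the members was 0.11 with amyloid, beside 0.098 for all genes, and 0.072 without, beside 0.075. Of the 20 members at an unadjusted p under 0.05 in the amyloid cohort 16 had the same sign in the other cohort. So did 7 of the 9 members at this p in the non-amyloid cohort. The share with the same sign among all genes at this p is not given here, so these counts have no background beside them. In the average of both cohorts 27 members (25.7%) had an unadjusted p under 0.05, of which Hom mice were lower in 17 and higher in 10, beside 7.65% of all genes. The members were expressed higher than most genes, with a median of 19.9 CPM beside 9.04 CPM for all genes kept. The median SE of their log2 fold changes in the amyloid cohort was 0.078, beside 0.112 for all genes, so these shares are set against genes measured less precisely. Per kilobase of gene model, *Calm2*, a calmodulin gene, had the highest level of the members at 1421 CPM per kb, and *Cox7a2l* was the 4th highest at 81.99 CPM per kb.

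**Figure D3:**
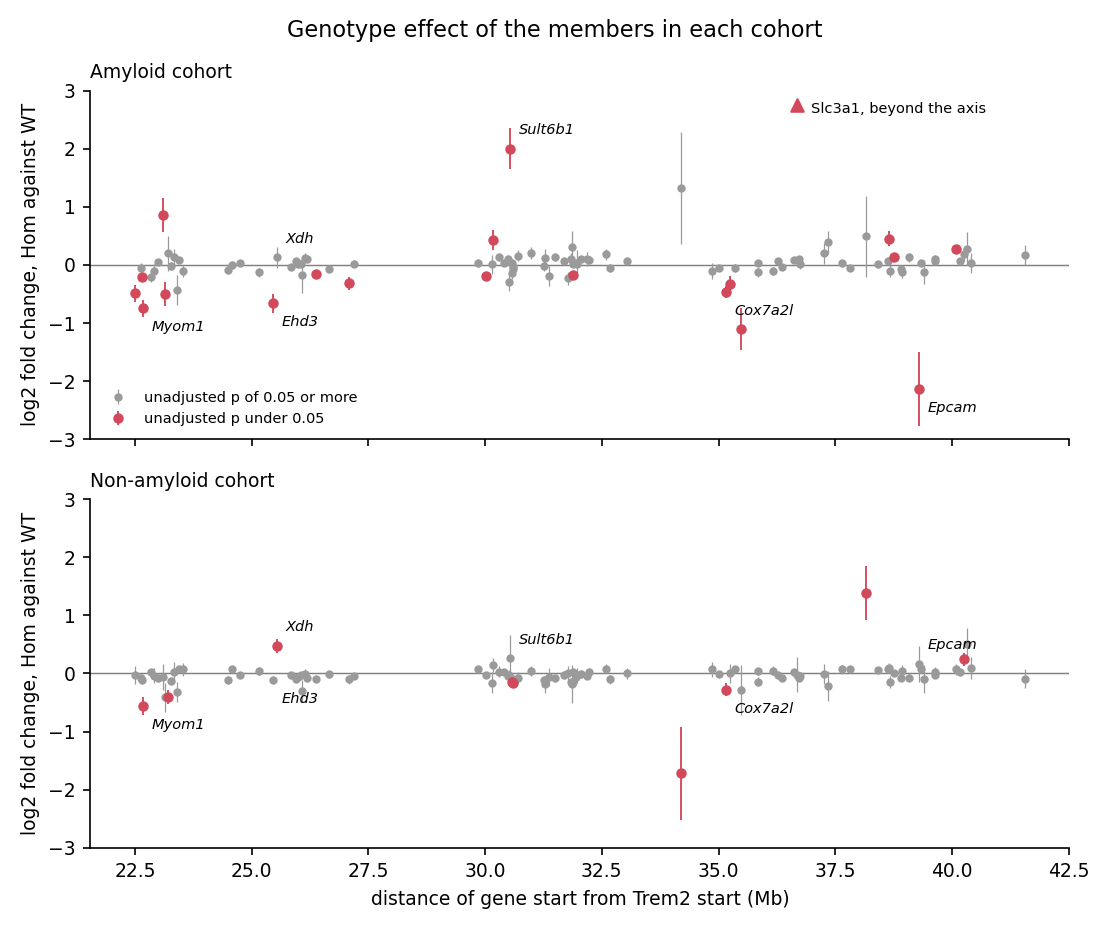
Log2 fold change of Hom against WT mice (points, with the SE) for the 105 members by distance from the start of *Trem2* in Mb, in the amyloid (top) and non-amyloid (bottom) cohort, coloured at an unadjusted p under 0.05. *Slc3a1*, at 6.28 in the amyloid cohort, lies beyond the axis, and *Myom1* and *Cox7a2l* are coloured and below 0 in both panels.

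How far the genotype difference reached along chromosome 17 was followed in windows of 5 Mb over protein-coding genes. Within 5 Mb of *Trem2*, 7 of 105 genes (6.67%) had an unadjusted p under 0.01 in both cohorts with the same direction, and from there to 70 Mb 2 of 95 (2.11%) did. In the distal interval *Myom1* alone did, in the window from 70 to 75 Mb, and 0 of the 22, 27 and 27 members of the windows from 75, 80 and 85 Mb. On all other chromosomes 8 of 15712 genes did (0.0509%), and more than 5 Mb from *Trem2* on its proximal side 0 of 487. The share did not fall steadily, since the 5 genes from 60 to 65 Mb and the 22 genes from 65 to 70 Mb held none, next to the window of *Myom1*. Beyond 90 Mb 5 genes were kept, and 0 of them had an unadjusted p under 0.05 in either cohort.

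At an unadjusted p under 0.05 in the amyloid cohort, the 4 windows of the distal interval held 24.1%, 18.2%, 14.8% and 18.5% of their genes, beside 9.80% on other chromosomes. Without amyloid they held 10.3%, 9.09%, 7.41% and 7.41%, beside 4.32% on other chromosomes. The window that holds *Trem2*, from 45 to 50 Mb, held 16.3% of its 86 genes with amyloid and 19.8% without. The distal windows were therefore above the other chromosomes in both cohorts, at 2 to 7 genes a window. On the proximal side, more than 5 Mb from *Trem2*, the shares were 12.5% with amyloid and 3.08% without. Single windows there varied. The window from 5 to 10 Mb held 18.8% of its 32 genes with amyloid and 12.5% without. From 35 to 40 Mb the shares were 20.3% and 4.05%, and from 10 to 15 Mb 3.45% and 0%. A share above the other chromosomes in both cohorts was thus not particular to the distal interval.

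Leaving out non-amyloid WT replicate 1, the WT mouse at the highest level of *Gm6969*, raised the members at an unadjusted p under 0.05 in the non-amyloid cohort from 9 to 18, with 6.06% of all genes then at this p. *Cox7a2l* then joined *Myom1* at an unadjusted p under 0.01 in both cohorts, as it did without non-amyloid Hom replicate 14 or WT replicate 15. Without non-amyloid Hom replicate 4 or WT replicate 24 the number of members at an unadjusted p under 0.05 was 14, beside 6.07% and 4.44% of all genes.

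**Figure D4:**
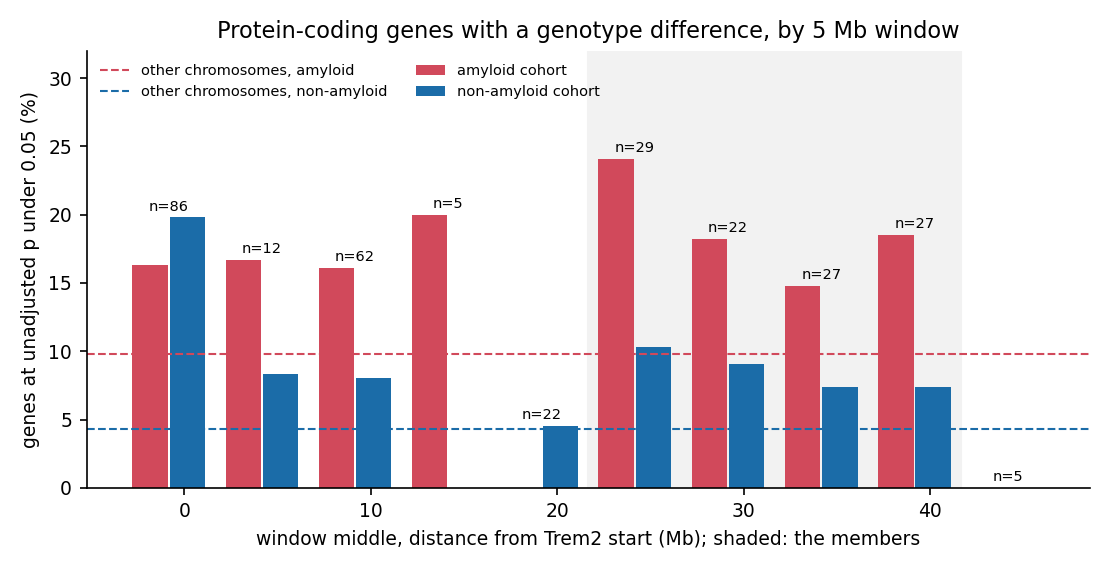
Share of protein-coding genes at an unadjusted p under 0.05 (vertical, %) in 5 Mb windows by distance from *Trem2* (horizontal, Mb), for the amyloid (red) and non-amyloid (blue) cohort, with dashed lines for all other chromosomes. Windows that start before 45 Mb are not shown. The 4 shaded windows hold the 105 members, at 14.8% to 24.1% with amyloid and 7.41% to 10.3% without.

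The other members were read by role, with calls by edgeR in the fits of each cohort unless another tool is named. In the amyloid cohort DESeq2 called 7 members, *Tgif1*, *Myom1*, *Ehd3*, *Sult6b1*, *Cox7a2l*, *Pigf* and *Foxn2*, beside 1.41% of all genes. 1 fit of 40 libraries called 7 there as well, *Myom1*, *Ehd3*, *Sult6b1*, *Cox7a2l*, *Slc3a1*, *Pigf* and *Epcam*, beside 2.88% of all genes. Of 17 myosin and cytoskeletal members, *Myom1* was called in the amyloid cohort, and 4 had an unadjusted p under 0.05 there, all 4 lower in Hom mice. The median log2 fold change of the 17 was -0.02 with and -0.03 without amyloid. *Myl12a*, a regulatory light chain of nonmuscle myosin, ranged from 15.1 to 21.9 CPM in amyloid WT and from 14.5 to 17.1 CPM in amyloid Hom mice. It stood at a log2 fold change of -0.21 (SE 0.07, adjusted p = 0.202, edgeR) with amyloid and -0.12 (SE 0.06) without. *Ehd3*, which shapes endosomal membranes, ranged from 94.9 to 289.5 CPM in amyloid WT and from 78.9 to 108 CPM in amyloid Hom mice. The highest were WT replicates 5 and 12, at 289.5 and 218 CPM, and no other mouse of the cohort exceeded 135 CPM. Its log2 fold change was -0.66 (SE 0.16, adjusted p = 0.0797, edgeR) with amyloid and -0.38 (SE 0.09, adjusted p = 0.0591, edgeR) in the average, which passed without amyloid WT replicate 8, 9, 13 or 22 (adjusted p from 0.0195 to 0.0403, edgeR). The average of *Ehd3* also passed with DESeq2 (adjusted p = 0.0114), with upper-quartile factors and with sex as a covariate, and DESeq2 called it in the amyloid cohort. *Fez2*, of the FEZ family of kinesin adaptors, stood at a log2 fold change of -0.19 (SE 0.05, adjusted p = 0.0821, edgeR) with amyloid and -0.02 (SE 0.05) without.

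Of 5 members listed under mitochondria and respiration, 2 were at an unadjusted p under 0.05 in the amyloid cohort, *Cox7a2l* and *Haao*, both lower in Hom mice and neither called there. The median log2 fold change of the 5 was -0.07 with and -0.10 without amyloid. *Haao*, a cytosolic enzyme of the kynurenine pathway of tryptophan breakdown, ranged from 0.301 to 1.22 CPM in amyloid WT and from 0.0467 to 0.697 CPM in amyloid Hom mice, and its log2 fold change was -1.10 (SE 0.36, adjusted p = 0.215, edgeR). *Ndufaf7*, a methyltransferase needed for complex I assembly, stood at a log2 fold change of -0.07 (SE 0.05) with and -0.10 (SE 0.05) without amyloid. *Lrpprc*, which stabilises mitochondrial mRNAs, stood at a log2 fold change of -0.04 (SE 0.04) with and -0.07 (SE 0.05) without amyloid.

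Of 7 members for chromatin, DNA repair and chromosome segregation, 0 were called and 1, *Ndc80*, had an unadjusted p under 0.05 in the amyloid cohort. Their median log2 fold change was 0.05 with and -0.02 without amyloid. *Msh6*, a mismatch repair gene, stood at a log2 fold change of 0.06 (SE 0.05) with and -0.02 (SE 0.06) without amyloid. *Fbxo11*, a subunit of a ubiquitin ligase, stood at a log2 fold change of 0.10 (SE 0.07) with and 0.03 (SE 0.08) without amyloid. Neither of these had an unadjusted p under 0.05 in either cohort. *Ndc80*, a kinetochore gene of dividing cells at a mean of 0.242 CPM, ranged from 0.192 to 0.452 CPM in amyloid WT and from 0.127 to 0.4 CPM in amyloid Hom mice. It stood at a log2 fold change of -0.50 (SE 0.21, adjusted p = 0.404, edgeR) with and -0.41 (SE 0.25) without amyloid.

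Of 10 members for RNA processing and translation control, 0 were called and 1, *Gemin6*, had an unadjusted p under 0.05 in the amyloid cohort. Their median log2 fold change was 0.03 with and -0.07 without amyloid. *Gemin6*, part of the SMN complex that assembles spliceosomal particles, stood at a log2 fold change of -0.18 (SE 0.08, adjusted p = 0.44, edgeR) with and -0.15 (SE 0.08) without amyloid. *Zfp36l2*, which destabilises AU-rich mRNAs, stood at a log2 fold change of -0.13 (SE 0.08) with and -0.14 (SE 0.08) without amyloid. *Thumpd2*, an RNA methyltransferase, stood at a log2 fold change of -0.05 (SE 0.07) with and -0.10 (SE 0.08) without amyloid.

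Of 8 transcription factors and cofactors, edgeR called 0 and DESeq2 called *Tgif1* and *Foxn2* in the amyloid cohort, and by edgeR 2 had an unadjusted p under 0.05 there, *Tgif1* lower and *Foxn2* higher in Hom mice. Their median log2 fold change was 0.11 with and 0.03 without amyloid. *Foxn2*, a forkhead factor, ranged from 16.5 to 21.1 CPM in amyloid WT and from 19.1 to 25.8 CPM in amyloid Hom mice, where 7 of 10 lay above all WT mice. The fold change on the log2 scale was 0.27 (SE 0.07, adjusted p = 0.0797, edgeR) with amyloid and 0.07 (SE 0.09) without. *Ypel5* stood at a log2 fold change of -0.08 (SE 0.07) with and -0.11 (SE 0.07) without amyloid, and *Gtf2a1l*, a germ cell relative of a general transcription factor subunit, at 0.28 (SE 0.28) and 0.50 (SE 0.28).

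Of 7 members for synapse, channels and receptors, 0 were called and 1, *Kcng3*, had an unadjusted p under 0.05 in the amyloid cohort. Their median log2 fold change was -0.10 with amyloid and 0.00 without. *Kcng3*, a modulatory subunit of voltage-gated potassium channels, stood at a log2 fold change of -0.33 (SE 0.14, adjusted p = 0.446, edgeR) with and 0.00 (SE 0.16) without amyloid. *Cript*, which binds the postsynaptic scaffold PSD-95, stood at a log2 fold change of -0.10 (SE 0.10) with (-0.05 without replicate 19) and -0.15 (SE 0.10) without amyloid. Of 10 kinases, phosphatases and Ras regulators, 0 were called, 1 lower and 1 higher member had an unadjusted p under 0.05 in the amyloid cohort, and the median log2 fold change was 0.09 with and -0.03 without amyloid. *Rasgrp3*, an exchange factor for Ras and Rap, stood at a log2 fold change of -0.32 (SE 0.12, adjusted p = 0.345, edgeR) with amyloid and -0.10 (SE 0.08) without. *Socs5*, a suppressor of cytokine signalling, stood at a log2 fold change of 0.14 (SE 0.06, adjusted p = 0.424, edgeR) with amyloid and 0.01 (SE 0.05) without. *Prkd3*, a protein kinase D, stood at a log2 fold change of -0.03 (SE 0.07) with and -0.17 (SE 0.08, adjusted p = 0.962, edgeR) without amyloid.

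Of 9 enzymes of xenobiotic, sugar and purine metabolism, *Sult6b1* alone was called in the amyloid cohort, and the median log2 fold change of the 9 was 0.01 in each cohort. *Xdh*, the xanthine oxidoreductase of purine breakdown, ranged from 5.94 to 10.8 CPM in non-amyloid WT and from 7.58 to 15.2 CPM in non-amyloid Hom mice. Its log2 fold change was 0.48 (SE 0.12, unadjusted p = 4.5e-04, adjusted p = 0.552, edgeR) without and 0.13 (SE 0.18) with amyloid. Of 6 members for extracellular matrix and adhesion, 0 were called in the fits of each cohort and *Epcam* in 1 fit of 40 libraries, 1 lower and 1 higher member had an unadjusted p under 0.05 in the amyloid cohort, and the median log2 fold change was -0.09 with and 0.07 without amyloid. *Vit*, a matrix protein, was the higher one, at 0.43 (SE 0.17, adjusted p = 0.37, edgeR) with and 0.15 (SE 0.12) without amyloid. *Epcam*, the lower one, is given with the cohort differences.

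Of 6 members for transporters and membrane traffic, edgeR called 0 in the fits of each cohort, DESeq2 called *Pigf* in the amyloid cohort, and 1 fit of 40 libraries called *Pigf* and *Slc3a1* there. By edgeR 2 had an unadjusted p under 0.05 in the amyloid cohort, *Slc3a1* and *Pigf*, both higher in Hom mice. Their median log2 fold change was 0.15 with and -0.01 without amyloid. *Pigf*, of GPI anchor synthesis, stood at a log2 fold change of 0.45 (SE 0.13, adjusted p = 0.116, edgeR) with and 0.09 (SE 0.09) without amyloid, and shared 31.6% of its exonic bases with *Rhoq* on the opposite strand. Over 104 members found in the annotation, 31 shared exonic bases with an exon on the opposite strand and 6 shared over 10%. Whether the counting used strand is not given in the sources used here, so counts on such overlaps are uncertain. *Ston1*, of the stonin family of endocytic adaptors, stood at a log2 fold change of 0.18 (SE 0.12) with and 0.24 (SE 0.11) without amyloid. *Mcfd2*, a cargo receptor subunit for export from the endoplasmic reticulum, stood at a log2 fold change of -0.07 (SE 0.04) with and -0.08 (SE 0.04) without amyloid.

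The value of *Slc3a1*, a subunit of a cystine and basic amino acid transporter, rested on 1 library. In amyloid Hom replicate 19 it had 5667 counts, or 133 CPM, and in the other libraries 2 to 33 counts, at most 0.357 CPM. *Slc3a1* shared 26.5% of its exonic bases with exons of *Prepl* on the opposite strand, which had 28556 counts in replicate 19 and 39936 to 75963 elsewhere. The log2 fold change of *Slc3a1* with amyloid was 6.28 (SE 1.54, adjusted p = 0.0787, edgeR), and -0.18 (SE 0.27, adjusted p = 0.853, edgeR) without replicate 19. Replicate 19 was the shallowest library, at 41646271 counts, and its markers of choroid plexus summed to 551.2 CPM, beside 12.11 to 670.7 CPM over the amyloid Hom mice. The part of that tissue in the count of *Slc3a1* was not tested. Without replicate 19 edgeR still called *Myom1* (adjusted p = 0.0356) and *Sult6b1* (adjusted p = 0.0231) in the amyloid cohort, and 21 members had an unadjusted p under 0.05, beside 7.75% of all genes.

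Of the 20 members at an unadjusted p under 0.05 in the amyloid cohort, 2 fell outside the role lists and were named after their values were seen. *Ttc27* stood at a log2 fold change of -0.16 (SE 0.05) with and -0.10 (SE 0.05) without amyloid, and at -0.13 (SE 0.03, adjusted p = 0.112, edgeR) in the average. *Gm4707*, at a mean of 0.491 CPM, stood at a log2 fold change of 0.86 (SE 0.29) with and -0.06 (SE 0.22) without amyloid. Without replicate 19, which had 2.18 CPM while the other amyloid Hom mice had at most 0.579 CPM, its value with amyloid was 0.45 (SE 0.17). Of the 9 members of the non-amyloid cohort, 4 were likewise outside the lists. *Spdya*, a cell cycle regulator that shares 18.3% of its exonic bases with *Trmt61b* on the opposite strand, stood at a log2 fold change of -0.40 (SE 0.12) without and 0.20 (SE 0.30) with amyloid. Without replicate 19, which had 6.24 CPM while the other amyloid Hom mice had at most 2.06 CPM, the value with amyloid turned to -0.21 (SE 0.20). *Cebpzos*, with 15.1% of its exonic bases shared with *Cebpz*, stood at a log2 fold change of -0.15 (SE 0.06) without and -0.14 (SE 0.10) with amyloid. Without replicate 19, which had 22.8 CPM beside 10.5 to 14.6 CPM in the other amyloid Hom mice, the value with amyloid was -0.25 (SE 0.07). *Gm6594* and *Gm10309* were among the lowest members, at means of 0.0949 and 0.0674 CPM, and stood at a log2 fold change of -1.72 (SE 0.80) and 1.38 (SE 0.46) without amyloid. EdgeR called none of these 6.

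The difference between the genotype effects of the cohorts was tested for every member. By edgeR 0 of 105 members passed at an adjusted p under 0.05, beside 0% of all genes, and by DESeq2 0 did. At an unadjusted p under 0.05 there were 14 members (13.3%), beside 10.3% of all genes, and 8 members without replicate 19, beside 7.84%. The lowest p were those of *Slc3a1*, which rested on replicate 19, *Sult6b1* and *Epcam*, an epithelial adhesion molecule. *Epcam* ranged from 0.0639 to 3.75 CPM in amyloid WT and from 0.0435 to 0.301 CPM in amyloid Hom mice, and its highest mice were WT replicates 5 and 12, at 3.75 and 0.979 CPM. Its difference between the effects was -2.30 (SE 0.74, unadjusted p = 0.00337, adjusted p = 0.231, edgeR), and -1.13 without amyloid WT replicate 5 and -1.22 with limma-voom.

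In WT mice, 10 of 105 members (9.52%) differed between the cohorts by edgeR, beside 7.95% of all genes. *Tgif1*, *Ehd3*, *Rasgrp3*, *Eif2ak2*, *Galm*, *Haao*, *Zfp36l2* and *Epcam* were higher in the amyloid cohort, and *Sult6b1* and *Cdc42ep3* were lower. *Tgif1*, a repressor in TGF-beta and retinoid signalling, ranged from 2.56 to 4.22 CPM in amyloid and from 0.896 to 1.74 CPM in non-amyloid WT mice, and these groups did not overlap. Its log2 fold change between the cohorts was 1.4 (SE 0.15, adjusted p = 2.1e-09, edgeR). *Rasgrp3* ranged from 22.4 to 46 CPM in amyloid and from 15.6 to 24.4 CPM in non-amyloid WT mice, at a log2 fold change of 0.70 (SE 0.11, adjusted p = 3.4e-06, edgeR). *Eif2ak2*, the double-stranded RNA sensor PKR, ranged from 9.83 to 29.6 CPM in amyloid and from 7.88 to 11.6 CPM in non-amyloid WT mice, at 0.80 (SE 0.13, adjusted p = 6.7e-06, edgeR). Both overlapped between the cohorts in part. *Haao* ranged from 0.301 to 1.22 CPM and from 0 to 0.203 CPM in the same groups, at 2.37 (SE 0.40, adjusted p = 2.2e-05, edgeR). *Galm*, of galactose metabolism, ranged from 2.91 to 5.45 CPM and from 1.79 to 3.27 CPM, at 0.54 (SE 0.11, adjusted p = 6.5e-04, edgeR).

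Within the amyloid cohort *Tgif1* ranged from 1.54 to 3.6 CPM in Hom mice, at a log2 fold change against WT of -0.49 (SE 0.14, adjusted p = 0.121, edgeR), and *Haao* and *Rasgrp3* also had an unadjusted p under 0.05 with lower values in Hom mice. EdgeR called none of these 3, and DESeq2 called *Tgif1*. Markers of microglia were compared between the same groups, and no relation to these genes over single mice was computed. The summed level of 8 microglial markers ranged from 617.3 to 1378 CPM in amyloid WT and from 499.1 to 839 CPM in amyloid Hom mice. In the non-amyloid cohort it ranged from 323.6 to 429.2 CPM in WT and from 359.2 to 409 CPM in Hom mice, and all 8 markers were called higher in amyloid than in non-amyloid WT mice. The 9 rows of plaque-associated microglial markers summed to 197.1 to 668.7 CPM in amyloid WT, 148.3 to 287.3 CPM in amyloid Hom, 105.8 to 137.6 CPM in non-amyloid WT and 92.43 to 127.8 CPM in non-amyloid Hom mice. In the genotype comparison of the amyloid cohort, 8 of 8 microglial markers were lower in Hom mice and 0 were called, and 9 of 9 rows of the plaque-associated list were lower and 1 was called. Reactive astrocyte markers summed to 553 to 2358 CPM in amyloid WT and 332.2 to 876.7 CPM in amyloid Hom mice. Of the markers of astrocytes, oligodendrocytes, neurons, endothelial cells, erythroid cells and choroid plexus, 0 were called between the genotypes in either cohort. The part of the marked cell types in the members' differences was not tested. In bulk cortex, fewer cells of a type and less RNA per cell cannot be told apart.

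**Figure D5:**
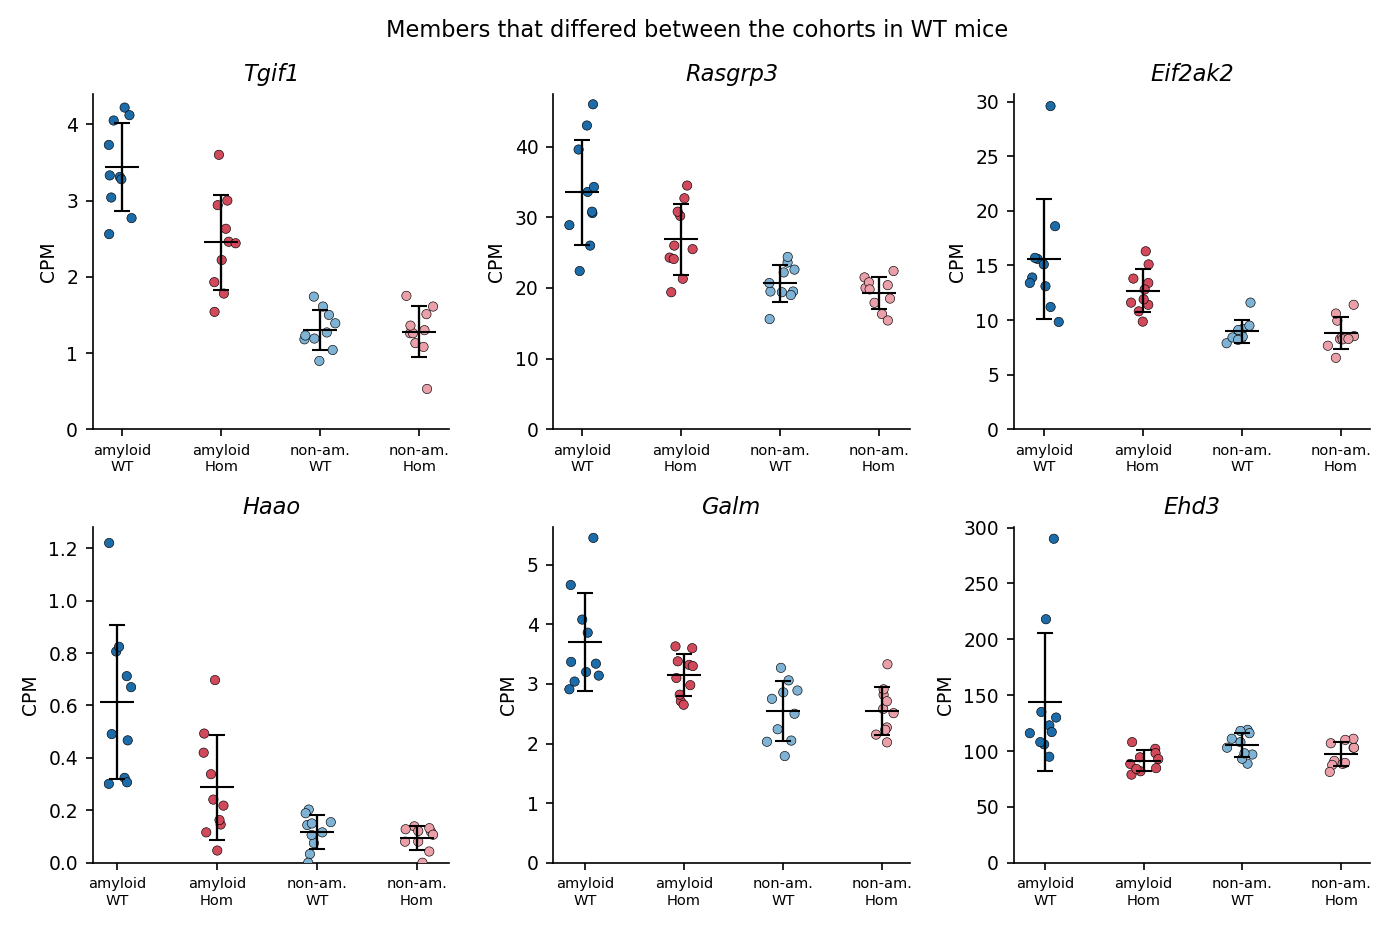
CPM of *Tgif1*, *Rasgrp3*, *Eif2ak2*, *Haao*, *Galm* and *Ehd3*, which were higher in amyloid than in non-amyloid WT mice, in each of the 40 mice by group (points), with the mean and SD of 10 mice (bars). *Tgif1* in amyloid WT mice lies wholly above both non-amyloid groups, and *Ehd3* has 2 amyloid WT mice above 200 CPM.

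Males and females were compared over all 40 mice. By edgeR 0 of 105 members were called, beside 0.358% of all genes, and 9 (8.57%) had an unadjusted p under 0.05, beside 8.74% of all genes. DESeq2 called 0 members. *Galm* had the lowest p, at a log2 fold change of males against females of -0.25 (SE 0.07, unadjusted p = 0.00103, adjusted p = 0.0987, edgeR). The next, in log2 fold change, were *Morn2* at -0.13 (SE 0.05), *Alk*, a receptor tyrosine kinase of neurons, at 0.19 (SE 0.07), *Eif2ak2* at -0.21 (SE 0.08) and *Epcam* at -0.82 (SE 0.37), and none was called. With 1 library left out the value of *Epcam* ranged from -0.94 to -0.41.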

How the data were processed

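Cortical RNA of 40 mice was sequenced from poly-A selected libraries. The deposited table holds raw read counts per gene for 40 libraries and 43346 genes on mm10, counted by the authors with featureCounts. The study's methods name TopHat for alignment, while the submitters' processing notes list STAR 2.5.2b, featureCounts 1.5.1 and edgeR. The strand setting is not given in the sources used here. Mitochondrial genes were listed at 0. The study left out 1 amyloid Hom female that the sources used here do not name, and all 10 were kept here.

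The filter, 10 or more counts in 4 or more libraries, kept 21253 genes, TMM factors were computed over the 40 libraries, and Hom was compared with WT within cohorts by the quasi-likelihood test of edgeR, with p-values adjusted over all genes kept by the Benjamini-Hochberg method. The average of both cohorts, the difference of their effects, the cohort difference in WT mice and sex were fitted over all 40. Calls needed an adjusted p under 0.05 with a log2 fold change beyond 0.25 either way. Values are CPM with TMM factors, and log2 CPM used a prior count of 2. Chi-square per degree of freedom was at least 13.67 in each of 180 pairs of libraries of a group, so none was counted as a duplicate, and 40 of 40 libraries matched their sex label. The number of mice behind the p-values is that of the labels, and littermates may share a litter, which was not modelled.

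Named were the members the interval was described by (*Myom1*, *Sult6b1*, *Cox7a2l*), members called in a cohort or the average, those at an unadjusted p under 0.01 in both cohorts, up to 4 members of each role list by p of the average, the 3 lowest p of the difference between cohorts and the 5 lowest of the cohort and sex comparisons, with *Trem2* and *Gm6969* besides. Other genes were named after their values were seen. 1 gene that this rule names is not reported here. The members and lists were chosen with earlier results of these data known. The sum of *Cox7a2l* and *Gm6969* was chosen after seeing the data.

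Sequences came from GENCODE vM21 and RefSeq, and *Gm6969* was aligned to *Cox7a2l* with BLAST+ 2.17.0. Analyses used R 4.3.3, edgeR 4.0.16, limma 3.58.1, DESeq2 1.42.0, Python 3.11.15, NumPy 2.4.6, pandas 2.3.3 and matplotlib 3.10.9, and the fits were checked on simulated counts. Alternatives were DESeq2, limma-voom, other scalings, other filters on low counts, sex as a covariate, 1 fit of 40 libraries, robust fits, other windows and each library left out in turn.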

Additional observations from a re-analysis of the deposited data

Results flagged for a closer look

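Of 42 named genes in 4 groups of 10 mice, 168 tests in all, 16 (9.52%) had 1 mouse far from the other 9, measured as its gap to the nearest mouse over the range of the group (Dixon's ratio, past its critical value). Chance flags about 1 in 20 groups. *Slc3a1* stood out at 133 CPM in amyloid Hom replicate 19 (next 0.225), at 0.357 CPM in amyloid WT replicate 5 (next 0.19) and at 0.255 CPM in non-amyloid Hom replicate 14 (next 0.16). Amyloid WT replicate 5 also had 3.75 CPM of *Epcam* (next 0.979).

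*Eif2ak2* stood at 29.6 CPM in amyloid WT replicate 32 (next 18.6) and at 11.6 CPM in non-amyloid WT replicate 15 (next 9.49). *Ndc80* stood at 0.466 CPM in non-amyloid WT replicate 15 (next 0.313) and at 0.367 CPM in non-amyloid Hom replicate 4 (next 0.24). Amyloid Hom replicate 16 had 109 CPM of *Lrpprc* (next 95.5) and 171 CPM of *Ypel5* (next 144). Non-amyloid WT replicate 7 had 33.9 CPM of *Msh6* (next 29.2) and 127 CPM of *Lpin2* (next 111).

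*Xdh* stood at 15.2 CPM in amyloid WT replicate 13 (next 9.4), and *Vit* at 2.31 CPM in amyloid WT replicate 36 (next 1.65). *Mcfd2* stood at 87.1 CPM in non-amyloid Hom replicate 11 (next 79.8), and *Ltbp1* at 11.3 CPM in non-amyloid WT replicate 24 (next 9.98).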

How the results depend on the processing

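The 2 members called in the amyloid cohort became 7 with DESeq2 (300 of all genes called, against 16), 4 with sex as a covariate (251 of all genes), 7 in 1 fit of 40 libraries (612) and 0 without the filter on low counts (8). With each library left out they ranged from 0 to 4, beside 6 to 204 of all genes. They were 4 without amyloid WT replicate 22, beside 95 of all genes. In the non-amyloid cohort 0 members were called in every alternative run. The 9 at an unadjusted p under 0.05 became 14 with DESeq2 (4.84% of all genes) and 15 with library size alone (4.65%). They ranged from 7 to 18 with each library left out, beside 3.53% to 6.07% of all genes. Members at an unadjusted p under 0.01 in both cohorts numbered 2 with limma-voom and 1 to 2 with each library left out. The 2 members called in the average became 4 with DESeq2 (103 of all genes, against 35) and 4 once sex was a covariate (82). With each library left out the range was 2 to 4, beside 23 to 107 of all genes, namely 4 without amyloid WT replicate 22 (62 of all genes). Limma-voom called 21 of all genes there. The end of the last window with a gene at an unadjusted p under 0.01 in both cohorts was 75 Mb with windows of 5 Mb and 72.5 Mb with windows of 2.5 Mb, which is set by the window itself. *Slc3a1* reversed in the difference between cohorts, to -0.17 with DESeq2 and -0.16 without replicate 19, and in the average, to -0.11 with DESeq2 and -0.10 without replicate 19, while with each library left out they ranged from -0.16 to 6.51 and from -0.10 to 3.22. Among single genes, 580 values kept their direction and side of the threshold under the other settings, 9 gained and 3 lost a call and 2 reversed, and with a library left out 2213 kept them, 9 gained and 16 lost a call and 2 reversed. The cause of these changes was not tested. No paired analysis was made, since the sample labels name no litter. Genes under 1 CPM, among them 15 members, rest on few counts.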

Other observations

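The same interval held 26 kept genes of other biotypes. Of these, 6 had an unadjusted p under 0.05 in the amyloid cohort, beside 9.67% of all genes. In the non-amyloid cohort 4 did, beside 4.49%, and in the average of both 9 did, beside 7.65%. The following were named after their values were seen. *Gm22858*, a snoRNA gene of 76 bases at chr17:71641584-71641659 inside an intron of *Wdr43*, ranged from 0.158 to 0.284 CPM in amyloid WT and from 0 to 0.148 CPM in amyloid Hom mice. There 10 of 10 Hom mice lay below all WT mice, and groups without overlap made up 0.00941% of all genes in this cohort. Its log2 fold change was -2.23 (SE 0.54, adjusted p = 0.0787, edgeR) with amyloid, -1.88 (SE 0.65, unadjusted p = 0.00786, adjusted p = 0.962, edgeR) without and -2.05 (SE 0.44, adjusted p = 0.0244, edgeR) in the average, where it was called. In the non-amyloid cohort it ranged from 0 to 0.281 CPM in WT and from 0 to 0.13 CPM in Hom mice, and the groups overlapped. *Snord53*, a snoRNA in an intron of the same gene, ranged from 0.267 to 0.571 CPM in amyloid WT and from 0 to 0.296 CPM in amyloid Hom mice, and stood at -1.79 (SE 0.47, adjusted p = 0.0947, edgeR) in the average, which did not pass. Both snoRNAs rest on few counts, at means of 0.101 and 0.248 CPM over the 40 mice. The libraries were poly-A selected, and whether these reads came from the snoRNAs or from other RNA of *Wdr43* was not tested.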
